A study of Micropterus salmoides with 6 samples.

Results

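The genes of hemoglobin, heme and iron handling were followed in gut tissue of a freshwater fish, the largemouth bass (Micropterus salmoides), at 2 temperatures. Members were taken from the deposited gene table by name: symbols of hemoglobin genes, alas2, transferrin receptor 1 genes, slc40a1, slc11a2, ferritin genes, hamp and cybrd1, and descriptions that contain "hemoglobin subunit" or "ferritin". They also had to reach 30 counts summed over the 6 libraries. Of 35854 genes used, 20 matched by name and 14 reached that minimum: 5 hemoglobin genes, 5 ferritin genes, the iron exporter gene slc40a1, the transferrin receptor genes tfr1a and tfr1b, and alas2. All 14 also passed the filter on low counts and were tested. The 6 others were fth1b, with 8 counts, all in control replicate 1, and 5 beta-2-type hemoglobin genes listed at 0 counts. The rule uses names and total counts and not the temperature contrast. A symbol match also needed a description about hemoglobin, heme or iron handling, so genes without a description could not enter. None of the 20 was named slc11a2, cybrd1 or hamp, and genes with those names were not analysed here.

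Control fish were kept at 26 °C and heat fish at 34 °C, and both groups were sampled after 9 h. All fish had been acclimated at 26 °C beforehand, and the labels give no strain, sex or age. Each of the 3 libraries per group pooled the intestines of 3 fish from a single parallel, so p-values measure the spread between pools and not that between single fish. The comparison asked which intestinal genes differed after acute heat.

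Hemoglobin carries oxygen in red blood cells as a tetramer of alpha-type and beta-type chains, each holding a heme group. Heme is built from glycine and succinyl-CoA along a pathway that starts with an aminolevulinate synthase, the ubiquitous alas1 or the erythroid alas2, and ends when ferrochelatase inserts iron. In cells, transferrin receptor 1 takes up iron bound to transferrin, ferritin shells store it, and ferroportin, the product of slc40a1, releases it. The intestine is the site of dietary iron uptake, and fish red blood cells keep their nucleus, so blood in a gut sample adds hemoglobin mRNA.

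The libraries held between 8244328 and 28822509 counts. Control replicate 1 was the deepest and stood apart. Its log2 CPM (counts per 1000000, on library sizes scaled by TMM) correlated with those of the other controls at r = 0.875 and 0.853. With heat replicates 1, 2 and 3 its r was 0.824, 0.864 and 0.871. The other controls correlated with each other at r = 0.932. Heat replicate 1, with the fewest counts, correlated with control replicates 2 and 3 at r = 0.873 and 0.845. With heat replicates 2 and 3 its r was 0.924 and 0.917. All r are across genes and lncRNAs, which are not independent replicates. Control replicate 1 had the highest CPM of the 6 libraries for 33.7% of 20326 tested genes and the lowest for 25.1%. Both shares were the largest of any library. The 5 enterocyte markers summed to 4938 CPM in control replicate 1 and to 2015 and 1780.4 CPM in control replicates 2 and 3. In the heat libraries they summed to 2040.4 to 2236 CPM. In control replicate 1, 4 of the 5 had their highest CPM, against 33.7% of all tested genes. The 7 hepatocyte markers summed to between 0.779 and 6.42 CPM in all libraries, with itih2 and ahsg1 at 0. The 3 exocrine pancreas markers summed to between 31.8 and 100.5 CPM. Summed smooth muscle markers (7 genes; 5848 to 12899 CPM in the controls, 4562 to 5295 CPM in the heat group), macrophage markers (6 genes; 87.5 to 99.2 and 58.1 to 66.1 CPM) and thrombocyte markers (5 genes; 32.4 to 46.0 and 23.1 to 23.3 CPM) were lower in every heat library than in any control. Among single genes, 25.8% of all tested genes had groups without overlap. By edgeR, 1 of 6 tested smooth muscle markers had an adjusted p under 0.05, against 0.984% of all tested genes. For macrophage and thrombocyte markers it was 0 of 5 each. The part of these cell types in the values below was not tested. In bulk tissue, fewer cells of a type and less RNA per cell cannot be told apart.

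None of the 14 members changed past the threshold between 26 and 34 °C. By edgeR's quasi-likelihood test with Benjamini-Hochberg adjustment over all genes, 0 of 14 had an adjusted p under 0.05, against 0.984% of all tested genes (200 of 20326), 0.59% higher and 0.394% lower. The smallest adjusted p among the members was 0.203. At an unadjusted p under 0.05 there were 2 members of 14, both hemoglobin genes, against 16.6% of all tested genes, and DESeq2 called 0 members as higher and 1 as lower, against 3.38% and 3.68% of all genes (7.07% in all). In none of the 14 were the control and heat libraries free of overlap, while 25.8% of all tested genes had no overlap. Log2 fold changes (heat minus control) were below 0 for 12 members and above 0 for 2, with a median of -0.53 against -0.12 for all tested genes. Control replicate 2 held the lowest CPM for 4 of the 14 members, against 12.4% of all tested genes. The tilt below 0 moved with control replicate 1, the only library without which it was recounted. Control replicate 1 held the highest CPM for 10 of the 14 members and the lowest for 1, against 33.7% and 25.1% of all tested genes. Without it 9 members lay below 0 and 5 above, the median was -0.16 against 0.01 for all genes, and 0 of 14 were called, against 8.71% of all genes (4.61% higher and 4.11% lower).

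Hemoglobin genes lay at 2 places in the genome, and these were used very unequally. A cluster of 13 annotated hemoglobin genes spans 41.4 kb of scaffold NW_024040041.1 (22835875 to 22877236), between kank2 and nprl3. A pair spans 4.2 kb of NW_024041262.1 (9721517 to 9725697), next to the aquaporin gene aqp8a.2. Positions are those of the deposited table, and the sources used here do not name its build. The pair supplied nearly all hemoglobin mRNA in 5 of the 6 libraries. Its share of summed hemoglobin TPM (the authors' unit, scaled for transcript length and library size) was 94.3% and 98.6% in control replicates 2 and 3 and 97.4%, 99.2% and 98.4% in heat replicates 1, 2 and 3. In control replicate 1 it was 68.2%. Of the 13 cluster genes only LOC119891526, LOC119891502 and LOC119891533, which sit together at its nprl3 end, reached 30 counts. Of the other 10, 9 were listed at 0 counts in all libraries, which allows up to 3 counts in a total of 93314956 (counting error only), and LOC119891494 had 3 counts, all in control replicate 1. The cluster copies may be near-identical, and the sources used here do not say how reads that match several copies were counted, so the zeros and the separate values of copies are uncertain.

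**Figure D1:**
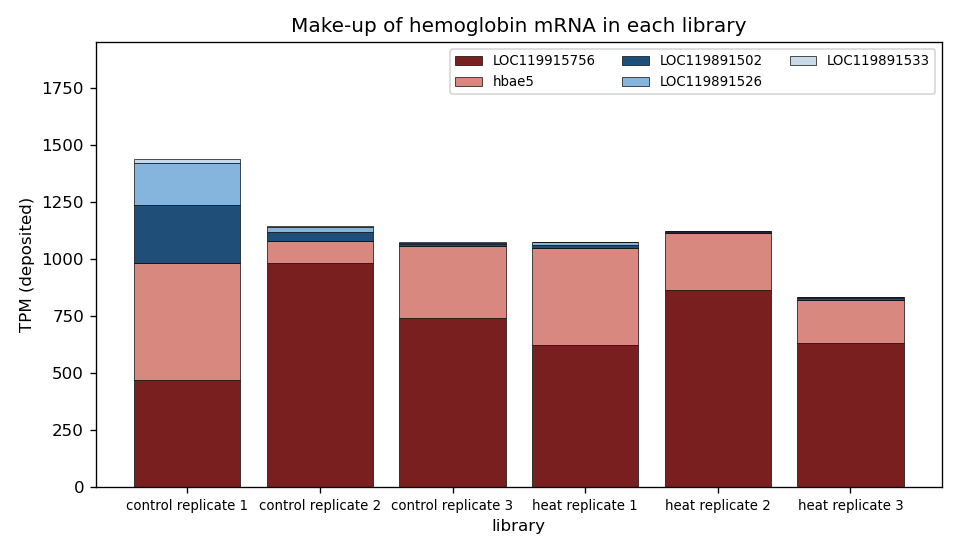
Stacked bars show the deposited TPM of the 5 hemoglobin members in each library, red shades for the pair on NW_024041262.1 and blue shades for the 3 cluster genes on NW_024040041.1. The blue part is large in control replicate 1, where the pair holds 68.2% of the total, and thin elsewhere.

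By mean TPM, the most abundant hemoglobin mRNA came from LOC119915756 (NW_024041262.1, 9721517 to 9722539, minus strand), described as hemoglobin subunit beta-1-like, an oxygen-carrying beta chain. Its level was 179, 257 and 228 CPM in control replicates 1, 2 and 3 and 253, 232 and 166 CPM in heat replicates 1, 2 and 3. In CPM the groups overlapped almost fully, with the lowest value in a heat library and the highest in a control. In TPM the gene was at 469, 980 and 742 in control replicates 1, 2 and 3. Heat replicates 1, 2 and 3 held 621, 862 and 630 TPM, so on that scale the lowest value was that of control replicate 1. Means were 221 ± 39.3 CPM at 26 °C and 217 ± 45.2 CPM at 34 °C (SD, n = 3 each), a log2 fold change of -0.03 (SE 0.30, edgeR adjusted p = 0.974). Its sign changed with the scaling, to 0.000807 under RLE factors, and with single libraries. With 1 library left out, the estimate stayed between -0.14 and 0.13.

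Its neighbour hbae5 (NW_024041262.1, 9724102 to 9725697, plus strand) is an alpha-type gene that in zebrafish is named as embryonic. It was detected in every library, at 187, 24.6 and 92.7 CPM at 26 °C and 166, 64.3 and 47.8 CPM at 34 °C. Both groups held a library at about the same high level, control replicate 1 and heat replicate 1, and the lowest value was that of control replicate 2. The means were 101 ± 81.3 and 92.5 ± 63.7 CPM, and the log2 fold change was -0.13 (SE 0.72, edgeR adjusted p = 0.950) and 0.67 without control replicate 1. Over 196 bases hbae5 overlaps aqp8a.2, an aquaporin gene on the opposite strand, whose level was 832, 464 and 285 CPM at 26 °C and 499, 555 and 439 CPM at 34 °C. The strand setting of the counting is not known, so reads of the overlap cannot be assigned. Both genes were highest in control replicate 1, while control replicate 3 was lowest for aqp8a.2 and control replicate 2 lowest for hbae5.

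Alpha and beta mRNAs of the pair were not at a fixed ratio. On the TPM scale, hbae5 stood to LOC119915756 as 1.09, 0.1002 and 0.427 in the controls and 0.686, 0.290 and 0.301 in the heat libraries. The beta gene was thus ahead in 5 of the 6 libraries and the alpha gene in control replicate 1, where aqp8a.2 was also highest. Reads of the overlap between hbae5 and aqp8a.2 cannot be assigned, so these ratios are uncertain. Over all 5 members, alpha-type TPM divided by beta-type TPM averaged 0.509 ± 0.435 in the controls and 0.431 ± 0.227 in the heat group (SD, n = 3), a difference smaller than the spread between pools.

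The 3 expressed cluster genes had the largest log2 fold changes of all members, and the size of these rested largely on 1 library. LOC119891502 (22872871 to 22873692, minus strand), described as hemoglobin subunit beta-2-like, was at 97.9, 10.8 and 2.88 CPM in control replicates 1, 2 and 3 and at 5.85, 1.67 and 1.86 CPM in the heat libraries. Control replicate 3 lay below heat replicate 1, so the groups overlapped. The log2 fold change was -3.63 (SE 1.23, edgeR adjusted p = 0.203), and -1.17 (SE 0.72, adjusted p = 0.332) without control replicate 1. DESeq2 with all libraries called this gene as lower (log2 fold change -3.52, adjusted p = 0.00769), the single member that any of the fits called.

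LOC119891526 (22869775 to 22870584, plus strand), hemoglobin subunit alpha-1, was also highest in control replicate 1, followed by control replicate 2 and heat replicate 1, with 65.9, 5.54 and 0.823 CPM at 26 °C and 4.42, 0.833 and 1.48 CPM at 34 °C. Its lowest value was that of a control. The estimate was -3.503 (SE 1.41, edgeR adjusted p = 0.267) on the log2 scale and -0.55 without control replicate 1 (adjusted p = 0.736). The alpha-A-like LOC119891533 (22876321 to 22877236, minus strand) reached 7.25 CPM in control replicate 1 and at most 1.04 CPM elsewhere, with 0 counts in heat replicate 2. Its log2 fold changes were -3.21 with all libraries and -1.27 without control replicate 1 (edgeR adjusted p = 0.306 and 0.592). All 3 genes were thus higher in control replicate 1 than in each other library.

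Summed over the 5 hemoglobin members, the level was 537, 299 and 325 CPM at 26 °C and 429, 299 and 217 CPM at 34 °C. The means were 387 ± 131 and 315 ± 107 CPM (SD, n = 3), and the groups overlapped. On the log2 scale heat minus control was -0.30 for the ratio of these means, and -0.27 in TPM. Against control replicates 2 and 3 alone it was 0.02 in CPM, -0.04 in CPM on unscaled library totals and -0.13 in TPM. The pair on NW_024041262.1 summed to 323 ± 42.1 and 309 ± 103 CPM.

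**Figure D2:**
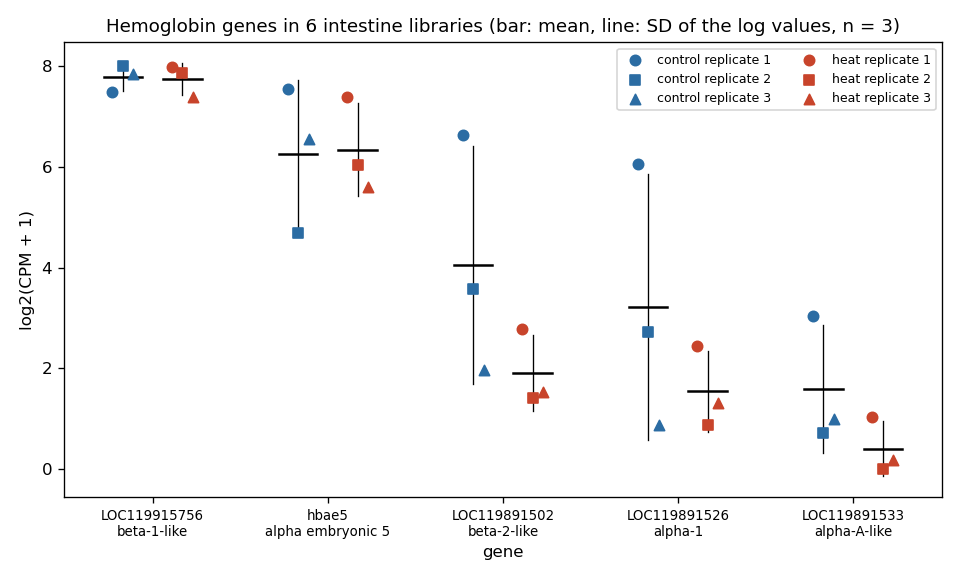
Points show log2(CPM + 1) of each hemoglobin member in each library, blue for controls and red for heat, with the replicate by marker shape, the mean as a bar and the SD of the log values as a line. On this CPM scale LOC119915756 varies little, while the 3 cluster genes on the right are high in control replicate 1 and low elsewhere.

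Markers of red blood cells gave a mixed picture beside these values. Of 15 listed erythrocyte markers 13 were tested. By edgeR 0 passed and 1 was at an unadjusted p under 0.05, against 0.984% and 16.6% of all tested genes. Of the 13 markers 3 lay above 0 and 10 below, and their median on the log2 scale was -0.22, against -0.12 for all tested genes. Their summed level ran from 234.2 to 486 CPM in the controls and from 236 to 319 CPM in the heat libraries, highest in control replicate 1. The list includes sptb, ank1a and nt5c3a, which other tissues also express. The band 3 anion exchanger gene slc4a1a was at 7.12, 2.77 and 7.08 CPM at 26 °C and 19.9, 6.48 and 5.64 CPM at 34 °C. Its highest value was in heat replicate 1. The erythropoietin receptor gene epor was also highest in heat replicate 1, at 14.3 CPM against 5.67 to 8.98 CPM in the other libraries. Among the heat libraries, summed hemoglobin was highest in heat replicate 1 in CPM (429). In TPM it was highest in heat replicate 2 (1122, against 1075 and 833 in heat replicates 1 and 3). The summed markers of heat replicate 1 were the highest of the heat libraries in CPM (319). In TPM they were the lowest of all 6 (108, against 154 to 272). Both slc4a1a and epor are among the 3 tested markers above 0 (0.90 and 0.55 on the log2 scale, edgeR adjusted p = 0.492 and 0.509), while 10 lay below. The erythroid transcription factor gene gata1a lay between 0.779 and 1.65 CPM in all 6, and slc4a1b had 0 counts. In control replicate 1, the library with the high cluster hemoglobins, 4 of the 13 tested markers had their highest level, against 33.7% of all tested genes. The genes slc4a1a, epor and gata1a were not among them, while the summed level of the markers was highest there. The part of blood content in the hemoglobin values was not tested.

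Ferritin mRNA, which encodes the iron storage shell, was abundant and did not differ past the threshold. The heavy-chain gene fth1a (NW_024044348.1, 17001531 to 17004886), whose product oxidises iron for storage, was at 729, 176 and 201 CPM at 26 °C and 139, 278 and 253 CPM at 34 °C. Control replicate 1 was the highest by far, and the other controls lay within the range of the heat group. The means were 369 ± 312 and 223 ± 73.8 CPM, with a log2 fold change of -0.72 (SE 0.59, edgeR adjusted p = 0.588) that turned to 0.25 (SE 0.299, adjusted p = 0.626) without control replicate 1.

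Of the other ferritin members, 4 are neighbours on NW_024040041.1 between 6747550 and 6772647, all on the minus strand and described as middle subunits, a ferritin chain known from fish and amphibians. LOC119882643 was at 292, 109.9 and 267 CPM at 26 °C and 176, 142 and 173 CPM at 34 °C. LOC119882652 was at 258, 66.4 and 190.3 CPM and at 66.1, 127 and 116 CPM. For both, control replicates 1 and 3 were above the heat libraries and control replicate 2 was at or below their range. LOC119882656 was at 170.5, 50.4 and 87.9 CPM at 26 °C and 64.0, 83.9 and 92.5 CPM at 34 °C, and LOC119882665 at 18.1, 6.90 and 23.96 against 14.4, 13.02 and 13.1 CPM. Both had overlapping groups. Log2 fold changes of the 4 ran from -0.74 to -0.27, and their edgeR adjusted p from 0.507 to 0.799. LOC119882652 lies wholly within LOC119882665 on the same strand, so their separate values are uncertain.

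Within the family, fth1a and the middle-subunit genes contributed in shifting proportions. By TPM, fth1a made up 46.3%, 39.7% and 23.6% of ferritin mRNA in the controls and 27.4%, 39.9% and 35.9% in the heat libraries, with no separation of the groups. Summed ferritin was at 1467, 409.99 and 771 CPM at 26 °C and 459.6, 643 and 647 CPM at 34 °C. On the log2 scale heat minus control was -0.60 for the ratio of the means and -0.02 against control replicates 2 and 3 alone.

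Iron transport genes also stayed below the threshold. The ferroportin gene slc40a1 (NW_024044494.1, 12590 to 21123), which exports iron from enterocytes and macrophages, was at 249.6, 74.3 and 52.6 CPM at 26 °C and 81.3, 95.4 and 70.8 CPM at 34 °C. As for fth1a, control replicate 1 stood far above the others, and the log2 fold change of -0.61 (SE 0.55, edgeR adjusted p = 0.633) turned to 0.39 (SE 0.21, adjusted p = 0.279) without it. The groups overlapped.

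The transferrin receptor gene tfr1a (NW_024040485.1, 23630385 to 23647857) was the member nearest to a higher level under heat. It was at 48.4, 53.7 and 37.5 CPM at 26 °C and 71.6, 53.7 and 96.3 CPM at 34 °C. Heat replicates 1 and 3 were above every control, and heat replicate 2 matched the highest control. The means were 46.5 ± 8.27 and 73.9 ± 21.4 CPM, the log2 fold change was 0.67 (SE 0.29, edgeR adjusted p = 0.305), and the estimates with 1 library left out ran from 0.42 to 0.85. Its paralog tfr1b (NW_024040040.1, 47179925 to 47193798) was at 6.69, 14.2 and 8.89 CPM at 26 °C and 10.1, 13.5 and 9.30 CPM at 34 °C, with overlapping groups (0.15 on the log2 scale with SE 0.36, edgeR adjusted p = 0.874). LOC119887120, described as transferrin receptor protein 1-like and outside the rule, was chosen after its values were seen. It was at 8.84, 17.7 and 11.2 CPM at 26 °C and 10.4, 16.7 and 13.3 CPM at 34 °C. Both genes were highest in control replicate 2, next highest in heat replicate 2 and lowest in control replicate 1, and they may share reads.

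The erythroid heme synthesis gene alas2 (NW_024040707.1, 21628235 to 21636038) was low throughout, at 12.2, 2.32 and 7.08 CPM at 26 °C and 5.59, 4.34 and 2.24 CPM at 34 °C. Control replicates 1 and 3 were above the heat range, and control replicate 2 was at its lower end. Its log2 fold change was -0.84 (SE 0.62, edgeR adjusted p = 0.539), and -0.21 without control replicate 1.

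**Figure D3:**
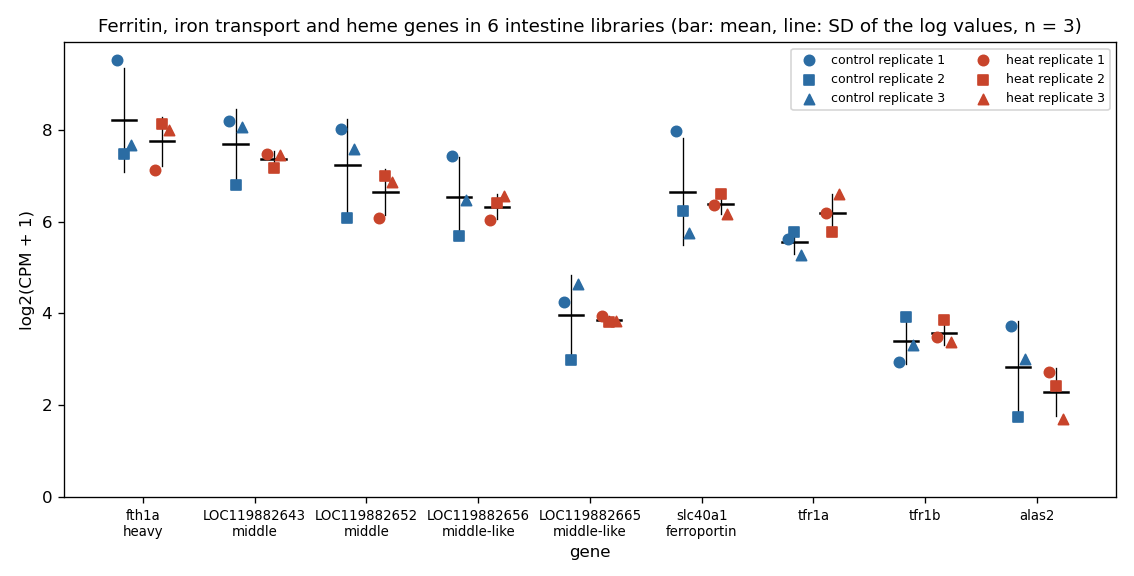
Points show log2(CPM + 1) of the 9 ferritin, iron transport and heme members in each library, with colours, markers, bars and lines as for hemoglobin. Control replicate 1 is the highest point for fth1a and slc40a1, and tfr1a is the gene whose heat libraries lie highest against its controls.

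**Figure D4:**
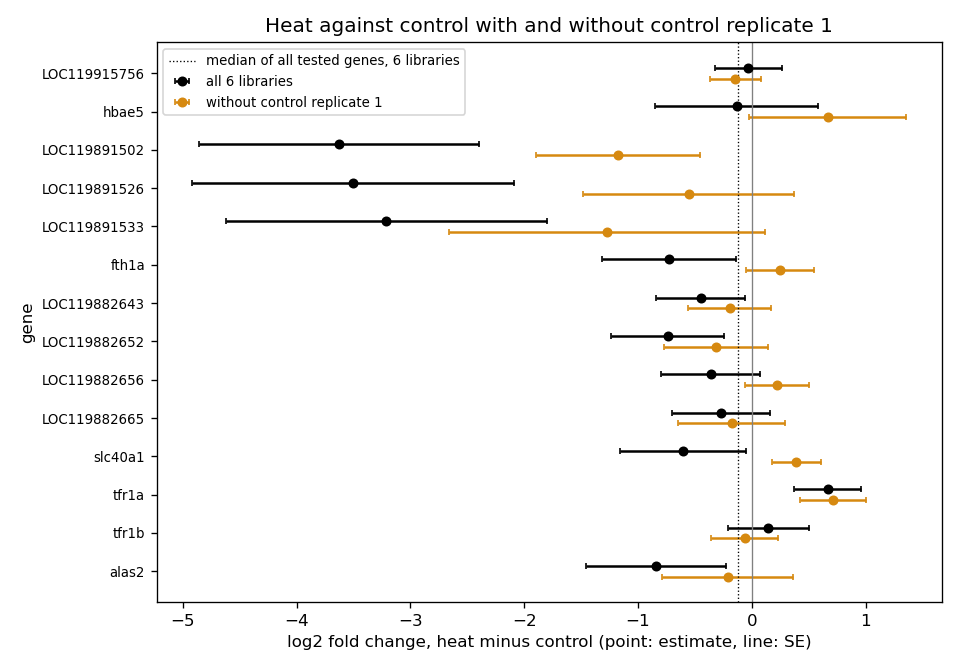
Log2 fold change (heat minus control) and SE of the 14 members, in black with all 6 libraries and in orange without control replicate 1; the dotted line is the median of all tested genes, -0.12. The cluster hemoglobins lie between -3.63 and -3.21 in black and between -1.27 and -0.55 in orange, and fth1a, slc40a1, hbae5, LOC119882656 and tfr1b change sign.

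Ordered by TPM in the controls, LOC119915756 (730 ± 256) and fth1a (587 ± 391) led, followed by LOC119882643 (428 ± 148), LOC119882652 (319 ± 142), hbae5 (309 ± 207) and LOC119882656 (192 ± 80.1). The gap between neighbours in this order was smaller than the larger of their SDs. Lower were slc40a1 (48.0 ± 32.8), LOC119882665 (33.4 ± 17.2), tfr1a (18.5 ± 5.70), alas2 (5.72 ± 3.15) and tfr1b (4.86 ± 2.73). The places of the cluster genes LOC119891502 (103 ± 135), LOC119891526 (68.4 ± 97.6) and LOC119891533 (8.16 ± 9.40) rested on control replicate 1. Over control replicates 2 and 3 alone their means were 25.5, 12.4 and 2.75 TPM, against 34.5 for LOC119882665 and 29.5 for slc40a1, and fth1a (361.5) then came after LOC119882643 (403.0). In the heat group the first 6 of these genes also held the first places, led by LOC119915756 at 704 ± 137 and fth1a at 423 ± 206 TPM (SD, n = 3), while LOC119891502 at 9.17 ± 4.40 and LOC119891526 at 6.65 ± 4.01 TPM lay below tfr1a at 30.2 ± 12.6 TPM.

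Other genes of the same pathways were read from 5 lists: heme synthesis, heme breakdown and transport, iron uptake, storage and sensing, iron-sulfur cluster assembly, and other globins. Of 16 tested heme synthesis genes 0 passed in edgeR, against 0.984% of all genes, and 2 were at an unadjusted p under 0.05, against 16.6%. Estimates lay above 0 for 6 and below for 10, with a median of -0.15 on the log2 scale, against -0.12 for all tested genes. The first and last enzymes had estimates of opposite sign. The ubiquitous synthase gene alas1 was at 282, 81.6 and 135 CPM at 26 °C and 70.0, 55.7 and 72.9 CPM at 34 °C, every heat library below every control (-1.33 on the log2 scale with SE 0.45, edgeR adjusted p = 0.202). Without control replicate 1 its estimate was -0.70 (adjusted p = 0.129). The ferrochelatase gene fech was at 64.2, 42.9 and 34.2 against 67.6, 62.1 and 62.9 CPM (0.45 on the log2 scale with SE 0.28, edgeR adjusted p = 0.479). The groups did not overlap for 3 of the 16 genes, against 25.8% of all tested genes. Besides alas1 these were uros, with every heat library below every control, and ppox, with every heat library above (-0.48 and 0.94 on the log2 scale, edgeR adjusted p = 0.551 and 0.335). The other gene at an unadjusted p under 0.05 was slc25a38b, a mitochondrial glycine carrier gene, at 1.82 on the log2 scale (SE 0.71, edgeR adjusted p = 0.251) with overlapping groups. These 3 further genes, uros, ppox and slc25a38b, were chosen after their values were seen.

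In the list of heme breakdown and transport 1 gene, abcg2b, changed. Of 20 tested genes 1 was lower, against 0.394% of all genes, 0 were higher, against 0.59%, and 19 did not pass. The median log2 fold change of the 20 was -0.25, against -0.12 for all tested genes. The gene abcg2b (NW_024040263.1, 4349384 to 4357467), an efflux pump whose mammalian counterpart exports porphyrins, urate and drugs, fell from 60.0, 18.6 and 21.7 CPM in the controls to 5.20, 3.63 and 4.62 CPM in the heat libraries. All 3 heat libraries were below every control. The level was 7.499-fold lower (-2.91 on the log2 scale with SE 0.502, edgeR adjusted p = 0.0483). Without control replicate 1 it was 4.48-fold lower and the call was kept (edgeR adjusted p = 0.0127). The call was lost without each of the other 5 libraries (edgeR adjusted p from 0.0827 to 0.269). It was also lost in 3 limma fits on log2 TPM (adjusted p from 0.0607 to 0.144) and with the replicate number as a block (edgeR adjusted p = 0.0971). The inducible heme oxygenase gene hmox1a, which opens the heme ring and is a stress-response gene in mammals, was low, at 2.92, 3.93 and 1.73 CPM at 26 °C and 2.08, 0.714 and 1.28 CPM at 34 °C (-1.11 on the log2 scale with SE 0.56, edgeR adjusted p = 0.373). The plasma heme scavenger gene hpxa had 12 counts in all and was not tested.

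The iron list holds 8 of the members. Of its 20 tested genes 0 passed in edgeR and 0 were at an unadjusted p under 0.05, against 0.984% and 16.6% of all tested genes. Estimates lay 10 on each side of 0, with a median of 0.04 on the log2 scale, against -0.12 for all tested genes. The iron sensor gene ireb2, whose product binds iron-responsive elements in ferritin and transferrin receptor mRNAs, was at 84.6 ± 19.0 and 83.6 ± 10.1 CPM (-0.02 on the log2 scale with SE 0.26, edgeR adjusted p = 0.984), with a sign that depended on the scaling. Its relative aco1 was at 63.2 ± 39.8 and 44.5 ± 9.06 CPM. The zinc and iron importer gene slc39a14 was at 13.9 ± 3.31 and 20.1 ± 3.87 CPM, and the mitochondrial iron carrier gene slc25a37 at 4.33 ± 1.77 and 5.03 ± 1.66 CPM (SD, n = 3; edgeR adjusted p = 0.601, 0.406 and 0.860 for aco1, slc39a14 and slc25a37). Transferrin itself, tfa, had 35 counts and the ferric reductase gene steap4 59 counts in all libraries, too few for the test. The gene described as hepcidin antimicrobial peptide, the hormone that closes ferroportin, had 14 counts, and 3 hepcidin-like genes had 0.

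Of 24 iron-sulfur cluster genes 0 passed in edgeR and 3 were at an unadjusted p under 0.05, with a median log2 fold change of -0.06. Of 5 tested globins outside the hemoglobins 0 passed and 0 were at an unadjusted p under 0.05, with a median of 0.15. Over all tested genes these shares were 0.984% and 16.6%, and the median was -0.12. Myoglobin, mb, the oxygen store of muscle, was at 6.86, 0.580 and 0.988 CPM at 26 °C and 5.20, 2.38 and 2.76 CPM at 34 °C. The cytoglobin gene cygb2 was at 4.86 ± 0.974 and 4.79 ± 0.982 CPM (SD, n = 3), and its estimate of -0.02 on the log2 scale changed sign with the scaling.

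Without control replicate 1, more of these genes passed, against a background of 8.71% of all genes (4.61% higher and 4.11% lower). Heme synthesis then had 2 of 16 higher, heme breakdown and transport 2 higher and 1 lower of 20, the iron list 1 higher of 22, iron-sulfur clusters 1 higher of 24 and other globins 1 higher of 5. The 7 higher genes, chosen after their values were seen, were fech (1.68-fold), the mitochondrial porphyrin-binding translocator gene tspo (2.44-fold), the folate and heme importer gene slc46a1 (2.70-fold), the heme-binding pgrmc1 (2.32-fold), the transferrin relative meltf (2.23-fold), the ferredoxin gene fdx1 (3.48-fold) and the cytoglobin-1-like LOC119886083 (3.29-fold). Their edgeR adjusted p ran from 0.0131 to 0.0457, and the lower gene was abcg2b. With all libraries none of these 7 passed, and none passed as higher with any other single library left out. For tspo, pgrmc1, meltf and LOC119886083 control replicate 1 lay above every heat library, and the other controls lay below them.

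**Figure D5:**
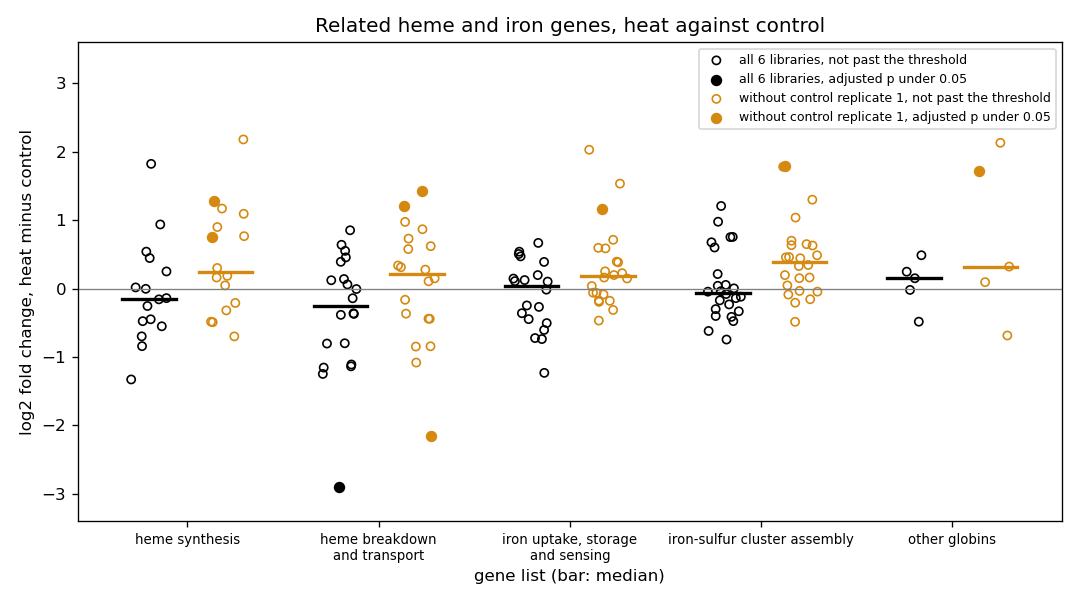
Each circle is the log2 fold change (heat minus control) of a tested gene in the 5 related lists, black with all 6 libraries and orange without control replicate 1, filled where the edgeR adjusted p is under 0.05; bars are medians. The single filled black circle is abcg2b at -2.91. Without control replicate 1 all 5 medians lie above 0, beside a median of 0.01 for all tested genes.

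Finally, genes were ranked by how near their pattern over the 6 libraries lay to that of summed hemoglobin. Among 14113 tested genes of at least 5 CPM, likeness was taken as the mean absolute difference of centred log2 CPM. The 8 nearest were flot1a, LOC119907070, LOC119885910, cd99, LOC119905625, oaz2a, slit1b and sdc3, at 0.067 to 0.117 log2 units. For summed ferritin the 8 nearest were sys1, rsl24d1, LOC119890837, glb1l, rpl6, krt94, coq9 and LOC119897121, at 0.077 to 0.124 log2 units. Of these, rsl24d1, LOC119890837 and rpl6 are named as ribosomal proteins or a relative of one. The share of such genes among the 14113 compared was not counted, so no link is read from these names.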

How the data were processed

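The authors deposited whole-number counts and TPM per gene and per lncRNA transcript for 6 libraries, per the file headers. Tools listed in the submitters' processing notes are StringTie 1.3.3, HISAT2 2.1.0 and DESeq, and their roles are not stated. The 2488 assembled genes that repeat lncRNA transcripts were left out. For the tests, R 4.3.3 ran the quasi-likelihood method of edgeR 4.0.16 after filterByExpr (minimum count 10, minimum total 15) and TMM scaling, with genes and lncRNA transcripts in 1 fit and Benjamini-Hochberg adjustment over genes (threshold 0.05). SE come from the F statistic. The code was tested on simulated data. DESeq2 1.42.0, limma 3.58.1 on TPM (pseudocount 1 or 0.1, genes averaging 0.5 TPM or more, or no filter), other scalings, no filter, single libraries left out and a replicate block were alternatives.

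Members and lists were chosen with earlier results of these data known. Text names all members, list genes past the threshold (at most 3 per list), a set of anchor genes and the 8 nearest patterns; aqp8a.2, LOC119887120, uros, ppox, slc25a38b and the markers sptb, ank1a and nt5c3a were added after their values were seen. The transferrin pattern of the iron list first took in 4 pyruvate dehydrogenase genes, which were removed. Levels of different genes are compared only in TPM; sums over a gene group in CPM are compared between libraries. No sequence of these genes was used here.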

Additional observations from a re-analysis of the deposited data

How the results depend on the processing

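Calls depended on the fit, and depth and 3 pools per group limit what could be detected. Genes called higher and lower were 120 and 80 in all, 688 and 749 with DESeq2, 57 and 19 with limma on log2(TPM + 1), 31 and 10 on log2(TPM + 0.1), and 0 and 0 on log2(TPM + 1) without a filter. With the replicate block they were 0 and 0 (edgeR). Deviations of same-numbered libraries from their group means correlated at -0.011, -0.012 and 0.040. The labels do not say whether a replicate number marks a shared tank or day, and these correlations cannot settle it. Without 1 library the counts ran from 0 to 965 and 0 to 860. Of the members, 0 were called in every fit run but DESeq2, which called 1 as lower. Related lists had 0 higher and 1 lower. The lower call was lost (0) in all 3 limma fits and the block, and with 1 library left out they ran from 0 to 7 higher and 0 to 1 lower. The iron list as first written, an alternative chosen after seeing the data, changed neither count.

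Some estimates near 0 changed sign; the cause was not tested. On the log2 scale LOC119915756 was 0.000695 with DESeq2 and 0.000807 with RLE scaling. For hbae5 the limma fits gave 0.115, 0.115 and 0.116 and the replicate block 0.0695. For ireb2 DESeq2 gave 0.0184, RLE 0.0193, upper-quartile scaling 0.0328, limma 0.0297, 0.0297 and 0.0302 and the replicate block 0.000249. For cygb2 DESeq2 gave 0.0123, RLE 0.0112, upper-quartile scaling 0.0221 and limma 0.0163, 0.0163 and 0.00755. Without a count filter tspo was -0.0452.

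With 1 library left out, these log2 fold changes took both signs: LOC119882656 from -0.70 to 0.22, LOC119882665 from -0.64 to 0.15, LOC119915756 from -0.14 to 0.13, fth1a from -1.07 to 0.25, hbae5 from -0.83 to 0.67, slc40a1 from -0.93 to 0.39 and tfr1b from -0.061 to 0.49. Outside the members they were LOC119887120 from -0.086 to 0.42, ireb2 from -0.13 to 0.20, aco1 from -0.76 to 0.16, slc25a37 from -0.039 to 0.59, mb from -0.24 to 2.13, cygb2 from -0.21 to 0.093, tspo from -0.39 to 1.28 and pgrmc1 from -0.32 to 1.21.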
